A study of Homo sapiens with 6 samples.

Results

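The comparison set HepG2 cells exposed for 12 h to an extract of Scutellaria baicalensis against HepG2 cells exposed to it for 6 h. HepG2 is a human hepatoma line, and Scutellaria baicalensis is a plant of the mint family. The 12 h array and the 6 h array are 2 of the 6 arrays of the series, chosen by their titles. The extract, called ESB in the labels, was given at 100 µg/ml for 12 h and for 6 h, and the other arrays carried cells exposed for 1, 3 or 24 h and control cells for which the labels name neither a time nor a vehicle. All 6 samples are labelled as the same cell line, so the 12 h and 6 h cells differed in labelled exposure time alone. Each group held 1 array, so no difference below has a spread between replicate cultures or a p-value, and every comparison describes these arrays. A difference is given as log2 signal at 12 h minus log2 signal at 6 h, after quantile normalization over the 6 arrays, and a gene was called higher or lower where it was at least 2-fold apart.

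Cells that run short of amino acids or fold proteins poorly raise translation of the transcription factor ATF4, which with C/EBP-family partners turns on genes for amino acid uptake, serine and one-carbon metabolism and stress signalling. Growth factor signalling through the MAP kinase cascade turns on immediate early genes such as EGR1 and JUNB, and it also raises its own inhibitors, among them the dual-specificity phosphatases and the Sprouty proteins. Some plant flavonoids are known ligands of the aryl hydrocarbon receptor, whose best-known target gene is CYP1A1.

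Of 17521 genes with a named probe, 10767 were measured, meaning that a probe was well above background and unsaturated on both arrays. At 12 h, 200 genes were at least 2-fold higher than at 6 h (1.86% of those measured) and 258 were at least 2-fold lower (2.4%), which made 458 in either direction (4.25%). The higher genes included transcripts of the ATF4 and amino acid response, growth-arrest transcripts, immediate early genes of the growth factor response and inhibitors that feed back on MAP kinases. On these 4 lists together, 19 of 75 measured genes were higher and 1 was lower. The 4 lists were put together after their differences were seen, so this count favours higher genes and is not a test. The 19 include MYC and DEPP1, whose second probes were below 0. Most of the higher genes, 161 of the 200, were on none of the 42 lists examined. The remaining 6754 genes were not measured on both arrays. The median difference over all measured genes was 0.00, their SD was 0.48, and 83.4% of genes lay within 1.5-fold. At least 4-fold apart were 11 genes higher and 38 genes lower at 12 h.

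Both arrays were dim. Processed signals at the 75th percentile reached 420 units at 12 h and 153 units at 6 h, against 768 to 1900 on the other arrays. Probes well above background made up 64.4% at 12 h and 49.5% at 6 h, against 69.8% to 73.2% elsewhere. Over the measured genes, the levels at 12 h and at 6 h had a Pearson correlation of 0.978. Those at 12 h correlated with the other arrays at 0.942 to 0.954, and those at 6 h at 0.914 to 0.926. These correlations run across genes, which are not independent replicates, and they share the normalization. The 12 h array was still 2.75-fold brighter than the 6 h array at the 75th percentile. The part of that brightness step in the differences was not tested.

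Low signal and the lowered genes went together. Of the 258 lower genes, 237 were below the median signal of measured genes (4.4% of 5384 dimmer genes) and 21 above it (0.39% of 5383 brighter genes). The higher genes numbered 154 among the dimmer (2.86%) and 46 among the brighter (0.855%). In the dimmest of 10 equal bins by signal, the median difference was −0.23, with 21 genes higher and 144 lower. From the second bin up, the median lay between −0.02 and 0.07. All 38 genes at least 4-fold lower were among the dimmer genes, while those at least 4-fold higher comprised 6 dim and 5 bright genes.

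**Figure D1:**
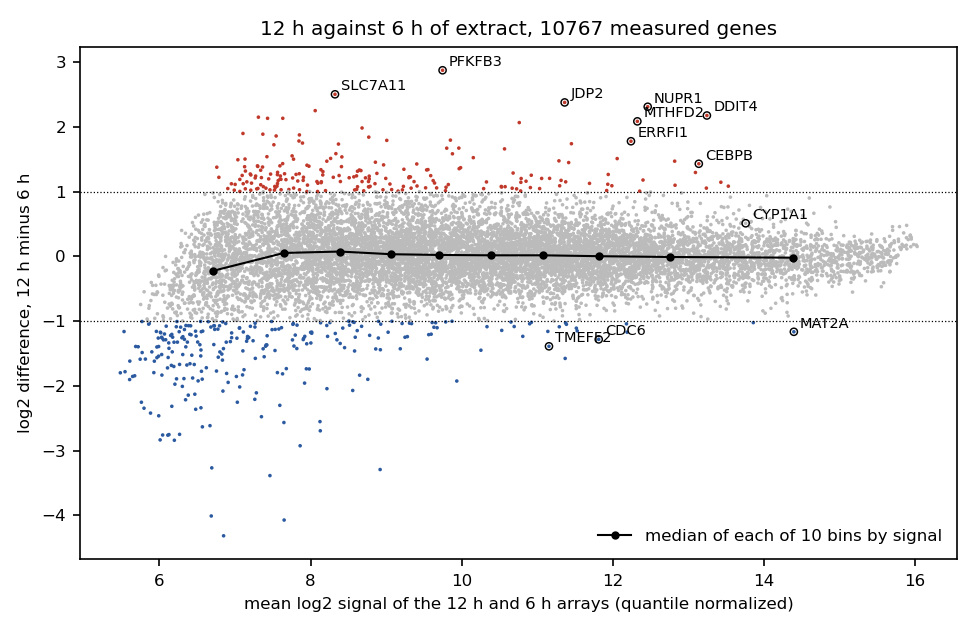
Log2 difference, 12 h minus 6 h, of each measured gene (vertical axis) against its mean log2 signal on both arrays (horizontal axis). Red points are at least 2-fold higher at 12 h, blue points at least 2-fold lower, dotted lines mark 2-fold and the black line joins the median of each of 10 bins by signal. Most blue points lie at the dim end, whereas named stress genes such as DDIT4, NUPR1 and MTHFD2 lie above the line at high signal.

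The spread between probes of one gene gave the error of a single probe's difference. In 3007 genes a second probe was measured as well, and the scatter between both probes put the SD of one probe's difference at 0.37. This error leaves out variation between cultures and arrays, which both probes share. It also pools all signals, whereas the SD of the genes' differences was 0.72 in the dimmest bin and 0.27 in the brightest. The 10 spots of one probe scattered far less, with a median SD of 0.0787 for the difference over 174 repeated probes. Where the brighter probe of a pair was at least 2-fold higher, in 37 genes, the other probe was above 0 in 31, with a median of 0.62. Where it was at least 2-fold lower, in 16 genes, the other probe was below 0 in 10, with a median of −0.28. Lowered genes thus had less backing from a second probe than raised genes.

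The ATF4 list and the aminoacyl-tRNA synthetases include the textbook carriers of the C/EBP-ATF response element, the sequence that ATF4 binds with its partners. The letters TGATGNAA, on both strands, were searched in RefSeq promoter windows of GRCh38.p14, which run from 250 bases before a gene's start to 50 after it. The windows below are shown because the members that carry the element can then be set against their differences. They are not the full set, as MTHFD1L, SLC3A2 and FGF21 of the ATF4 list also matched. MTHFD1L differed by 0.13 and SLC3A2 by 0.59, and FGF21 was not measured. The capitals mark the match, which reads TTNCATCA where it lies on the opposite strand.

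CARS1: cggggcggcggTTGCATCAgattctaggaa
GARS1: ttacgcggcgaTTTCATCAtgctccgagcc
NARS1: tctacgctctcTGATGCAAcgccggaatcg
TARS1: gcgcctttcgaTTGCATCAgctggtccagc
AARS1: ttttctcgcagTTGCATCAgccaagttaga
IARS1: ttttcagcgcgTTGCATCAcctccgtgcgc
MARS1: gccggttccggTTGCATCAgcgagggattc
ATF3: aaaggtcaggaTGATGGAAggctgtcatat
ASNS: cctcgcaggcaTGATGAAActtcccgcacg
CEBPG: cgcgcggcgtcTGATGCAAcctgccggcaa
CHAC1: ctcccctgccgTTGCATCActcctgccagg

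The windows of the highest and lowest of these differences are placed as follows. The CARS1 window lies at chr11:3057407-3057436 on the minus strand, and its match begins 2 bases before the start. The GARS1 window lies at chr7:30594834-30594863 on the plus strand, with the match 33 bases before the start. That of ATF3 lies at chr1:212565205-212565234 on the plus strand, 191 bases before the start. That of CHAC1 lies at chr15:40953251-40953280 on the plus strand, 209 bases before the start. A match says that these letters are in the window and nothing of binding.

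Matches were found in 4.46% of 27305 genes of the promoter table and in 2.65% of the 8748 measured genes with a window. They were found in 15 of the 169 higher genes with a window (8.88%) and in 5 of the 199 lower ones (2.51%). Among the aminoacyl-tRNA synthetases, 7 of 16 windows matched, and the 7 genes had a median difference of 0.74, with CARS1 and GARS1 at least 2-fold higher. The 9 synthetases without a match had a median of 0.20, with none 2-fold higher. On the ATF4 list the order ran the other way. There the 6 measured genes with a match had a median of 0.12 and the 13 without a match a median of 0.99.

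The ATF4 and amino acid response list held 24 genes, of which 23 were measured, 8 were at least 2-fold higher and none was lower. Differences above 0 numbered 21, and the list's median was 0.67. Among effectors of the stress response, DDIT4, an inhibitor of mTORC1, read 14.33 log2 units at 12 h against 12.16 at 6 h, a difference of 2.17. DDIT3, the transcription factor CHOP, read 9.69 at 12 h against 7.85 at 6 h, a difference of 1.84. Its control, 1 h and 3 h levels lay between 7.71 and 7.92 and its 24 h level was 9.75, so DDIT3 stood at its early level at 6 h and above it from 12 h. TRIB3, a pseudokinase that restrains ATF4, read 10.22 at 12 h against 8.88 at 6 h.

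The cystine importer SLC7A11 had the largest difference of the list, 2.50, with 9.57 at 12 h against 7.07 at 6 h. Its levels on the other 4 arrays ran from 9.35 to 10.42, so the 6 h value was the one apart. The mitochondrial folate enzyme MTHFD2 read 13.37 at 12 h against 11.28 at 6 h, a difference of 2.08. CTH, which makes cysteine from cystathionine, read 11.40 at 12 h against 9.74 at 6 h, a difference of 1.66. Both were lower at 6 h than on any other array. ATF4 itself read 12.995 at 12 h against 12.00 at 6 h, just under 2-fold, and 14.47 at 24 h.

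Several known targets differed little. Asparagine synthetase, ASNS, differed by 0.11, and the serine synthesis enzymes PHGDH and PSAT1 by 0.20 and 0.32, all within 1 SD of a single probe. ASNS was very bright, with 15.27 at 12 h and 15.16 at 6 h, and was not measured on all 6 arrays. Differences were narrowest at such signals, with an SD of 0.27 in the brightest bin. The members below 0 were CHAC1, a glutathione-degrading enzyme, at −0.42, and CEBPG, a partner of ATF4, at −0.34. FGF21, a secreted hormone of the liver, was not measured. The list's count of 2-fold higher members ran from 5 to 9 over the alternatives, and its median from 0.60 to 0.76. The 5 came from the genes above the median signal alone, where 16 members remained.

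Among the 3007 genes with at least 2 measured probes, 8 were at least 2-fold higher by every probe. CEBPB, a liver transcription factor that pairs with ATF4, was one of them. It read 13.85 at 12 h against 12.42 at 6 h, a difference of 1.43, and its second probe gave 1.52. The control and 24 h arrays both read about 15, at 15.02 and 14.99. The others were CXCL2, a neutrophil-attracting chemokine, HBP1, a transcriptional repressor of cell cycle genes, PDPK1, the kinase that activates AKT, MAN2A1, a Golgi mannosidase, AEBP2, a cofactor of the Polycomb complex PRC2, NCOA7, a nuclear receptor coactivator, and ATOSA. Their brighter probes differed by 1.05 to 1.79, but with the normexp background those of AEBP2, ATOSA, HBP1, NCOA7 and PDPK1 came under 2-fold, at 0.94, 0.83, 0.69, 0.93 and 0.89. CXCL2 alone of these read above every other array at 12 h by more than 1 log2 unit, with 10.75 at 12 h against 8.95 at 6 h and 8.68 to 9.03 elsewhere.

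Among the same genes with at least 2 measured probes, MAT2A was the single one in which every probe was at least 2-fold lower. It encodes an enzyme that makes S-adenosylmethionine, the methyl donor, and is the form found in most tissues other than adult liver. It read 13.81 at 12 h against 14.98 at 6 h, a difference of −1.17, and its second probe gave −1.10. The 24 h level was lower still, at 13.26, and the control read 14.10.

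Among bright genes with a single probe, the 6 most raised were JDP2, NUPR1, DDIT4, MTHFD2, APOL6 and ERRFI1. JDP2, a repressor of AP-1, read 12.55 at 12 h against 10.18 at 6 h, a difference of 2.38. NUPR1, a small stress-induced chromatin protein, read 13.62 at 12 h against 11.31 at 6 h, a difference of 2.31. APOL6, an apolipoprotein L family member, read 11.79 at 12 h against 9.73 at 6 h, a difference of 2.06. All 3 stood at their highest of the 6 arrays at 12 h.

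The 6 most lowered bright genes with a single probe were LCE1D, TMEFF2, CDC6, EN2, BEST4 and TERT, with differences from −1.58 to −1.16. CDC6, which loads the replicative helicase at origins, read 11.17 at 12 h against 12.46 at 6 h. TERT, the catalytic subunit of telomerase, read 10.56 at 12 h against 11.72 at 6 h. In both the 6 h array was the highest of the 6. TMEFF2, a membrane protein of brain and prostate, read 10.46 at 12 h against 11.85 at 6 h, while the other 4 arrays gave 4.91 to 7.44. LCE1D, a protein of the cornified skin envelope, and EN2, a homeobox factor of the midbrain, read lowest at 12 h.

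**Figure D2:**
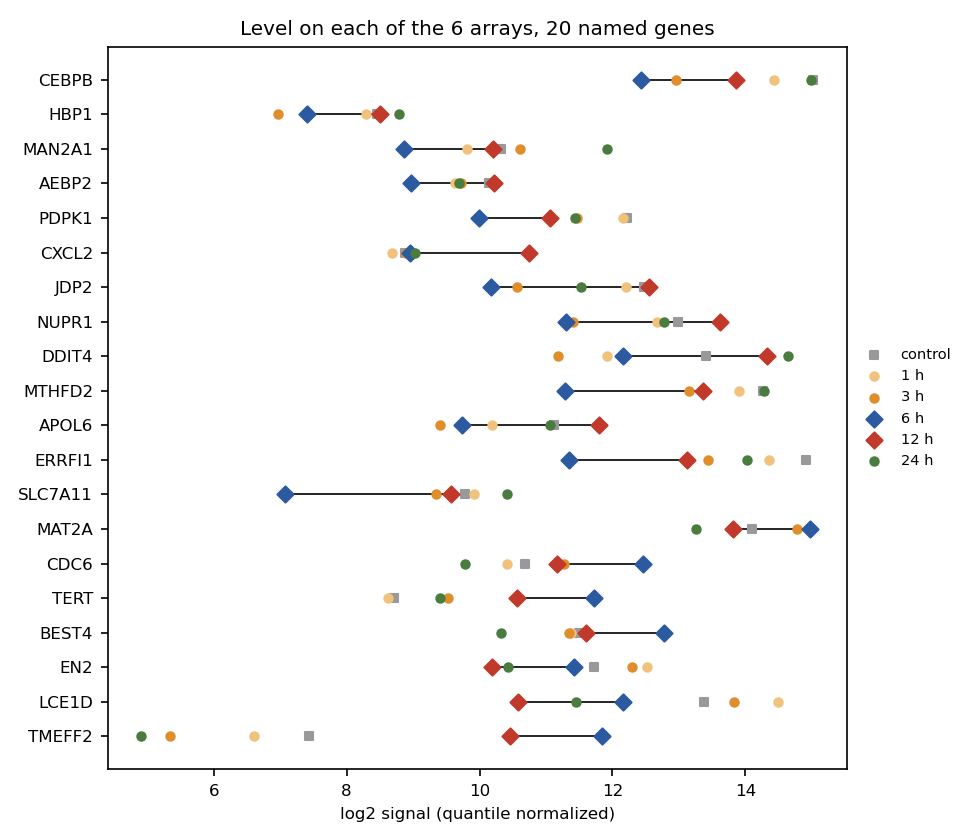
Log2 signal (horizontal axis) of 20 named genes (rows) on each of the 6 arrays. Red diamonds are the 12 h array, blue diamonds the 6 h array, joined by a line, and the small symbols are the control (grey squares) and the 1 h, 3 h and 24 h arrays (circles). In SLC7A11, MTHFD2 and ERRFI1 the blue diamond stands below all other symbols, and in CXCL2 the red diamond stands above them.

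The growth-arrest list holds transcripts that accumulate in cells short of growth factors or under FOXO control. Of its 24 genes 19 were measured, 4 were at least 2-fold higher, none was lower, 18 were above 0, and the median difference was 0.65. CCNG2, an unconventional cyclin linked to arrest, read 8.77 at 12 h against 7.02 at 6 h. BTG1, an antiproliferative factor, read 9.13 at 12 h against 7.54 at 6 h. YPEL2 read 7.99 at 12 h against 6.61 at 6 h, a difference of 1.39, or 0.87 with the normexp background. These 3 genes were lower at 12 h than in the control, where they read 9.48, 11.40 and 8.63. On the whole list 1 of 19 genes was above its control level at 12 h.

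DEPP1, a FOXO target, was the remaining raised member, at 1.15, but its second probe gave −0.52. The count for this list was less steady than that for the ATF4 list. It was 2 with the normexp background and 1 without the dimmest 33.3% of genes or among genes above the median signal alone. CDKN1B, the inhibitor p27, differed by 0.93 and BCL6 by 0.86.

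The list of MAP kinase feedback inhibitors had the highest median of the 42 lists, 0.76, over 13 measured of 17 genes, with 2 higher and 1 lower. ERRFI1, an inhibitor of the EGF receptor, read 13.13 at 12 h against 11.35 at 6 h, a difference of 1.78. DUSP1, a phosphatase of nuclear MAP kinases, read 10.64 at 12 h against 8.97 at 6 h, a difference of 1.67. The control read 14.91 for ERRFI1 and 11.71 for DUSP1, above 12 h in both. The Sprouty genes SPRY1, SPRY2 and SPRY4 differed by 0.76, 0.95 and 0.76, short of 2-fold, and DUSP6, the ERK phosphatase, by 0.82. DUSP2 was lower, with 5.97 at 12 h against 7.14 at 6 h, and it was in the dimmest bin and at −0.55 with the normexp background. With the normexp background the list's median was 0.43, below the ATF4 list's 0.60 and the growth-arrest list's 0.57, so its first rank did not hold there.

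Immediate early genes were measured in 23 of 27 cases, with 6 at least 2-fold higher, none lower, 19 above 0 and a median difference of 0.42. PIM1, a survival kinase, read 10.92 at 12 h against 9.39 at 6 h, a difference of 1.52. ATF3, a stress-induced repressor that is also on the ATF4 list, read 12.57 at 12 h against 11.31 at 6 h. JUNB, an AP-1 subunit, read 11.90 at 12 h against 10.73 at 6 h. The zinc finger factor EGR1 differed by 1.13 and CCN2, a matricellular protein, by 1.06, or 0.84 with the normexp background. MYC differed by 1.74 on its brighter probe, with 12.32 at 12 h against 10.58 at 6 h, but by −0.70 on its other probe, so its direction was not settled. The list's count of 6 includes MYC, and it was 5 with the median of all probes. FOS differed by 0.60 and JUN by −0.20.

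**Figure D3:**
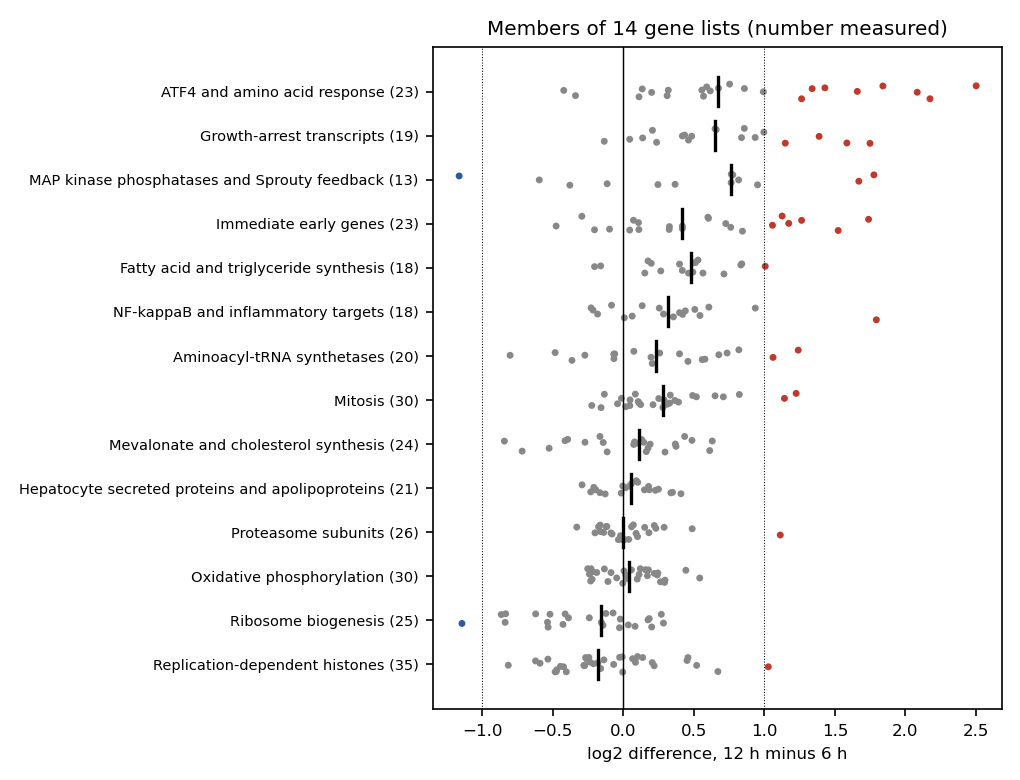
Log2 difference, 12 h minus 6 h (horizontal axis), of each measured member of 14 gene lists (rows, number measured in brackets). Points are genes, red at least 2-fold higher and blue at least 2-fold lower, black bars are list medians, the solid line is the median of all genes and dotted lines mark 2-fold. The upper rows lie to the right of the line, and the proteasome and oxidative phosphorylation rows lie around it.

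The levels on the other arrays show where 12 h and 6 h stood in the series. Over 21 ATF4 list genes measured on all 6 arrays, the median level minus the control's was −0.21 after 1 h and −0.42 after 3 h. It then stood at −0.95 in the 6 h cells, −0.21 in the 12 h cells and 0.33 in the 24 h cells. For the immediate early genes it was −0.79 in the 6 h cells, −0.12 in the 12 h cells and 0.20 in the 24 h cells. The MAP kinase feedback list stood at −1.31 at 6 h and −0.54 at 12 h, and the growth-arrest list at −1.04 at 6 h and −0.64 at 12 h. In all 4 lists the 6 h array had the lowest median. The ATF4 list at 12 h was close to its level at 1 h.

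**Figure D4:**
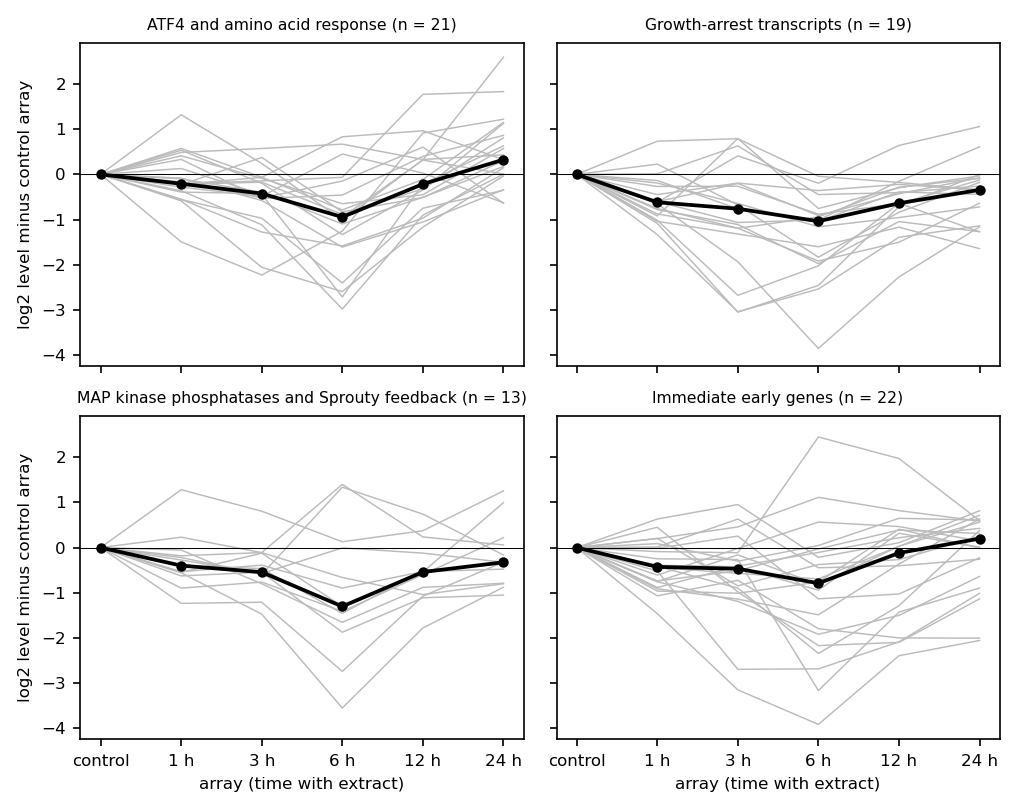
Log2 level minus the control array's level (vertical axis) on the control array and after 1, 3, 6, 12 and 24 h with extract (horizontal axis), for 4 gene lists. Grey lines are genes measured on all 6 arrays and the black line is their median. The median is lowest at 6 h in each panel and higher at 12 h.

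Over all the genes called, on these lists or not, the 6 h array was again the one most often apart. Of 198 higher genes measured on all 6 arrays, the 6 h array was the lowest in 165 (83.3%, against 22.2% of all 10442 such genes), and the 12 h array was the highest in 45 (22.7%, against 13.9%). At 12 h, 93 of the 198 lay within the range of the control, 1 h, 3 h and 24 h arrays (47.0%), close to the 43.9% of all genes. Of 247 lower genes, the 6 h array was the highest in 213 (86.2%, against 30.9% of all genes) and the 12 h array the lowest in 80 (32.4%, against 8.04%). Choosing genes by their difference between these arrays favours the counts of extremes, among higher and lower genes alike. The median levels of the higher genes were 9.19 at 12 h and 7.88 at 6 h, with 9.22 to 9.74 on the other arrays. Those of the lower genes were 6.28 at 12 h and 7.83 at 6 h, with 6.44 to 6.55 on the others.

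The calls of higher and lower genes did not compare the 24 h and 3 h levels. Those arrays still had a part in the choice, as only genes measured on every array were counted here. The gene lists were chosen with earlier results of these data known, so their 24 h and 3 h values are not an independent check. The level at 24 h was above that at 3 h in 154 of the 198 higher genes (77.8%), with a median difference of 0.57. Over all genes the share was 59.6% and the median 0.13. Among the lower genes it was 102 of 247 (41.3%), with a median of −0.10. On the ATF4 list, 17 of 21 genes were higher at 24 h than at 3 h, with a median of 0.98, and on the immediate early list 16 of 22, with a median of 0.77. The MAP kinase feedback list had 10 of 13, with a median of 0.25. The growth-arrest list had 12 of 19, with a median of 0.32, a share near that of all genes. All arrays share the quantile normalization.

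Aminoacyl-tRNA synthetases charge tRNAs with amino acids, and many are ATF4 targets. All 20 cytosolic genes were measured, 2 were higher, 13 were above 0 and the median was 0.23. CARS1 read 8.22 at 12 h against 6.98 at 6 h, and GARS1 read 11.44 at 12 h against 10.38 at 6 h. With the normexp background they differed by 0.77 and 0.95, under 2-fold. NARS1 and TARS1 differed by 0.82 and 0.74. FARSB, a subunit of the phenylalanine enzyme, was the lowest at −0.80, and its second probe gave −0.20.

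Lipid genes of the fatty acid and triglyceride list were above 0 in 16 of 18 measured genes, with a median of 0.48. Only PLIN2, the lipid droplet coat protein, reached 2-fold, with 12.86 at 12 h against 11.85 at 6 h, and it came just under it, at 0.98, with the normexp background. The elongase ELOVL6 differed by 0.84, the phosphatidate phosphatase LPIN2 by 0.83 and ATP citrate lyase, ACLY, by 0.71. The cholesterol synthesis list had a median of 0.11, with no gene past 2-fold, and its sign turned under scaling to the 75th percentile. There the sterol synthesis enzymes SQLE and NSDHL differed by −0.27 and 0.16.

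Of 10 measured genes of the aryl hydrocarbon receptor list, 8 were above 0 and 2 below, with a median of 0.39, and 1 was at least 2-fold higher. CYP1A1, the receptor's best-known target, read 14.01 at 12 h against 13.50 at 6 h, a difference of 0.51 that is under 2-fold. Its control level was 10.48, so most of its distance from the control was already there at 6 h. The receptor gene AHR read 10.64 at 12 h against 9.29 at 6 h, a difference of 1.35. AHRR, the receptor's repressor, differed by −0.81, with −0.49 on its second probe. TIPARP differed by 0.39, CYP1A2 by −0.44 and NQO1 by 0.16, and CYP1B1 was not measured. HMOX1, the haem-degrading enzyme, differed by −0.56.

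On the TGF-beta and BMP response list, 3 of 18 measured genes were higher, with a median of 0.14. Among them were TGIF1, a transcriptional corepressor of the pathway, at 1.51, and CCN2.

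Inflammatory targets of NF-kappaB gave 1 higher gene, CXCL2, among 18 measured, and a median of 0.32. CCL20, a chemokine, differed by 0.93 and NFKB1 by 0.54. NFKBIA, the inhibitor that NF-kappaB induces, differed by 0.13. Among mitotic genes, 25 of 30 were above 0, with a median of 0.28, and CDC25C and TOP2A were higher at 1.22 and 1.14, with CDC25C at 0.89 with the normexp background. The glycolysis and hypoxia list had a median of 0.05, which turned below 0 under scaling to the 75th percentile, but 4 of its 27 measured genes were higher, namely PFKFB3, DDIT4, MXI1 and VEGFA, of which MXI1 was at 0.67 and VEGFA at 0.94 with the normexp background. PFKFB3, which makes the allosteric activator of glycolysis, had the largest difference of any listed gene, 2.87, whereas its second probe gave 0.42.

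A few lists leaned below 0. Ribosome biogenesis genes were below 0 in 18 of 25 cases, with a median of −0.16. The snoRNP protein NOP58 differed by −0.87, RRP9 and RRS1 each by −0.84, and PPAN, at −1.15, had a second probe at 0.02. Replication-dependent histone genes were below 0 in 24 of 35 cases, with a median of −0.18. Endoplasmic reticulum chaperones had a median of −0.01, and HSPA5, the chaperone BiP, differed by −0.55 on its brighter probe and 0.04 on the other. PDIA4, a protein disulfide isomerase, read 7.93 at 12 h against 7.43 at 6 h, with 12.60 in the control.

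Hepatocyte markers were present. Of 12, 9 were measured and 3 were saturated, with a median difference of 0.23, or −0.02 under scaling to the 75th percentile. AFP, the fetal albumin-like protein, read 15.17 at 12 h and 15.02 at 6 h, and APOA1 read 14.73 at 12 h and 14.39 at 6 h. ALB read 12.46 at 12 h against 12.05 at 6 h, but its second probe differed by −1.18. Markers of blood cells were measured in 5 of 12 cases, of fibroblasts in 2 of 12 and of endothelium in 4 of 12. CLDN5, a tight junction protein of endothelium, was the one such marker past 2-fold, with 5.62 at 12 h against 7.51 at 6 h, in the dimmest bin. The levels of the marker lists overlapped. At 12 h the measured hepatocyte markers read 6.88 to 15.74, those of blood cells 7.42 to 10.32, of fibroblasts 9.91 to 11.96 and of endothelium 5.62 to 8.03.

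Some genes were well above background on only 1 of these arrays, so a bound replaces their difference. The bound sets the measured level against the higher of the gene's own level and the lowest level well above background on the other array. It is approximate, because a reading not well above background is uncertain and can lie over that lowest level. At 12 h alone 2167 genes were seen, of which 1800 were also seen on all 4 remaining arrays, and 88 had a bound of at least 2-fold. INHBE, a liver activin subunit, had a bound of 3.09-fold, with 7.84 at 12 h against 6.21 at 6 h. The bound was 2.51-fold for the p53 target TP53INP1, 2.32-fold for the MAP kinase inhibitor SPRED2 and 2.20-fold for the AP-1 subunit FOSB. For INHBE and SPRED2 it is the difference from the 6 h reading itself, 6.21 and 6.57, so it is no strict lower limit. The lowest level well above background was 4.21 at 12 h and 6.02 at 6 h. Bounds of genes seen at 6 h alone thus tend to start higher, and the counts at 12 h and 6 h are not comparable. At 6 h alone 112 of the 17521 genes with a named probe were seen, all with a bound of at least 2-fold. The gap between those lowest levels made such a bound likely beforehand, so that count is not a result about these genes. Of these 112, 58 were seen on no other array. Chief among these was DRD1, a dopamine receptor, with 2.05 at 12 h against 10.35 at 6 h and 1.91 to 2.46 elsewhere. These genes were named after their values were seen.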

How the data were processed

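Expression was measured on 6 one-colour Agilent arrays of HepG2 cells, 1 array per group. An RNeasy kit served for RNA and a linear amplification kit for labelling, per the labels' protocols, whose shared text also names mouse liver. The labels name the dye Cy5, while the files hold green-channel columns. The authors' deposited scanner files hold intensity per spot, with a background-corrected processed signal, per the file headers. Nothing was normalized between arrays. The authors' deposited table holds intensity of 35646 probes, which equals median signal minus median local background within 0.51 units for 100% of values. The scanner software is not given in the sources used here, nor is the probes' build.

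Control spots and outlier spots were left out, spots of a probe were averaged, and log2 processed signal was quantile normalized over the 6 arrays with limma 3.58.1 in R 4.3.3. Probes were named through RefSeq (GRCh38.p14): 26810 had 1 symbol, 62 several and 14128 none. Among the unnamed, 5167 were measured. A gene took its measured probe with the highest mean of both arrays. With 1 array a group no test was possible, and genes were called by size, at least 2-fold. The choice of probe, the 2-fold call and the SD from probe pairs were tested on simulated data. That simulation left out the normalization, the filter on dim probes and noise that varies with signal. Counts are read against the share over all measured genes.

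The members and the 42 gene lists were chosen with earlier results of these data known. Genes were named by rule: the most raised and lowered genes whose probes all passed 2-fold, the 6 most raised and lowered brighter genes with 1 probe, the 4 most different measured members of a list, and a set named whatever its values, CYP1A1 and ALB among it. Some genes under this rule are not reported here. List members beyond these were named to describe a list, after their values were seen. Alternatives covered scaling, background, the filter on dim probes and the choice of probe. The normexp background included an offset of 50 units, against median processed signals of 18.4 at 6 h and 49.1 at 12 h. Such an offset draws log2 differences toward 0, most of all at low signal. The number of arrays limits the precision between groups.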

Additional observations from a re-analysis of the deposited data

How the results depend on the processing

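Against 458 genes at least 2-fold apart, 200 higher and 258 lower, the counts stayed within 1.5 times under 75th percentile scaling, quantile normalization of these 2 arrays alone, cyclic loess, the authors' deposited values and the median of a gene's probes. With the normexp background there were 135 (66 higher, 69 lower), without a filter on dim probes 3303 (1603 higher, 1700 lower), and without the dimmest 33.3% of genes 151 (100 higher, 51 lower). Among genes above the median signal alone, an alternative chosen after seeing the data, there were 67 (46 higher, 21 lower). The last 2 test fewer genes. Scaling to the 75th percentile put the median of all genes at −0.08. The median of the ribosome biogenesis list was −0.41 under it, and that of proteasome subunits −0.24, against 0.00 as reported. The circadian clock list, at 0.25 as reported, stood at −0.27 among genes above the median signal, where 3 of its genes remained. Medians of 16 lists changed sign under at least 1 alternative, all reported within 0.30 of 0, as did 9 named genes, among them ALB at −0.39 with the median of all probes and AFP at −0.09 under 75th percentile scaling. Of 60 named genes at least 2-fold apart, 25 came under 2-fold with the normexp background, among them DUSP2 at −0.55, HBP1 at 0.69 and CARS1 at 0.77. Its offset of 50 units draws differences toward 0, and the offset's part in these losses was not tested. Under the other alternatives that changed the values, at most 4 came under 2-fold. The filters by signal take the same normalized values, so they could hardly show a loss. Of the 60 genes, 43 remained without the dimmest 33.3% and 29 above the median signal. MYC was at 0.52 and VEGFA at 0.39 with the median of all probes. No paired analysis was possible because each group held 1 array, and leaving out an array leaves no comparison.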

Other observations

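Other liver and clock genes were also past 2-fold. The bile acid and nuclear receptor list had 1 higher and 1 lower of 21 measured genes, and the clock list 1 and 1 of 13. A single gene is 4.76% of the first list and 7.69% of the second, against 1.86% higher and 2.4% lower over all measured genes. HAMP, the iron hormone hepcidin, read 9.52 at 12 h against 8.24 at 6 h, a difference of 1.28. NR1H4, the bile acid receptor FXR, read 11.55 at 12 h against 10.51 at 6 h, and its target NR0B2 read 13.69 at 12 h against 13.02 at 6 h, which is under 2-fold. CYP8B1, a bile acid synthesis enzyme, was lower, with 7.97 at 12 h against 9.22 at 6 h. BHLHE40, a clock repressor, read 9.18 at 12 h against 7.65 at 6 h, while CLOCK read 7.07 at 12 h against 8.81 at 6 h.

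BCL2, the survival factor, read 8.20 at 12 h against 9.65 at 6 h, a difference of −1.44, and BMF, a death-promoting relative, read 10.21 at 12 h against 9.08 at 6 h. The autophagy kinase ULK1 differed by 0.98, just under 2-fold, with 1.11 on its second probe. With the normexp background HAMP was at 0.91, NR1H4 at 0.93, CYP8B1 at −0.84 and BMF at 0.87, each under 2-fold. Among the unnamed probes, 58 were at least 2-fold higher and 220 lower at 12 h, of 5167 measured. That was 5.38% in either direction, against 4.25% of measured genes, of which 200 were higher and 258 lower. These are counts of single probes, not of the brightest probe of a gene. Their signal was not set against that of the genes.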
